A study of Homo sapiens with 9 samples.

Results

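RD cells carrying shTRPS1#1, a short hairpin against TRPS1, were compared with RD cells carrying a non-targeting hairpin, shNT. The comparison used 6 of the 9 libraries of the series, picked by their labels: 3 with shTRPS1#1 and 3 with shNT. The remaining 3 carried shTRPS1#2, another hairpin against the same gene, and were used to tell which changes of shTRPS1#1 were also seen with the other hairpin, and entered the filter and the estimate of spread in the fit. RD is an established human line of embryonal rhabdomyosarcoma, a soft tissue tumour of childhood whose cells resemble immature skeletal muscle. All 3 groups had the same treatment, namely doxycycline at 1 µM during 2 days in growth medium with 10% serum and 10 further days in differentiation medium with 2% horse serum, so what is compared is hairpin against hairpin under the drug. Messenger RNA was selected by its poly(A) tail and sequenced. Cells without doxycycline or without a hairpin were not analysed here, RD is 1 line, and the labels do not say whether the libraries of a group came from separate cultures. The p-values therefore reflect the spread among these libraries alone, and that spread may be technical.

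TRPS1 carries a GATA-type zinc finger among its DNA-binding domains, acts mainly as a repressor, and is best known from cartilage, bone and hair follicles. In rhabdomyosarcoma the factors that start muscle differentiation, such as MYOD1, are present, yet the cells keep dividing and seldom finish the programme. A short hairpin RNA is cut by the cell's microRNA enzymes into a guide strand, which an Argonaute protein uses to find and destroy matching messages. Knockdown studies usually include more than 1 hairpin per gene, and read a change seen with 1 hairpin alone with more caution than a shared one. The series title asks how TRPS1 bears on myogenic differentiation.

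Depth was even, with 22302248 to 23289062 counts per library in the shTRPS1#1 group and 22480288 to 22945103 in the shNT group. Libraries of the same group were not copies of each other: over all pairs, the chi-square of their counts divided by its degrees of freedom lay between 1.27 and 2.85. TRPS1 itself came first. TRPS1 had 1237, 1371 and 1299 counts with shTRPS1#1, 1242, 1313 and 1280 with shTRPS1#2, and 1744, 1583 and 1695 with shNT, so all 3 shTRPS1#1 libraries lay below all 3 shNT libraries. The message that shTRPS1#1 left was 78.6% of that in shNT cells (confidence interval at 95%, 74.0 to 83.5), which is a log2 fold change of -0.35 ± 0.04 (SE, edgeR adjusted p = 2.27e-08). Protein levels were not analysed here. The muscle identity of the line was checked on 6 markers: MYOD1, MYOG, DES, CHRNA1 and MYH3 were well above the filter in every library, while MYF5 had 1 read in all 9 libraries together. The defining markers of leukocytes (PTPRC), endothelium (PECAM1), epithelium (EPCAM), fat cells (ADIPOQ) and smooth muscle (MYH11) had 8 counts or fewer in every library.

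Genes were tested on the counts with edgeR's quasi-likelihood test in 1 fit of all 9 libraries. The 17014 genes that passed the filter on low counts were tested, and a gene was called where its p, adjusted by Benjamini and Hochberg's method over all of them, was under 0.05. Levels are given as counts-per-million (CPM), with SD over n = 3 libraries, and differences as log2 fold changes with a standard error (SE). A change was counted as specific to shTRPS1#1 when the gene was called against shNT, was called in the same direction against shTRPS1#2, and was not called in that direction between shTRPS1#2 and shNT. The 3 comparisons share libraries, so counts over this rule describe the data and carry no test of their own. In bulk RNA, a change in the share of cells that make a message and a change per cell cannot be told apart.

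With shTRPS1#1, 2285 genes were called against shNT, which is 13.4% of the genes tested. Of these, 1208 were higher (7.1%) and 1077 lower (6.33%). Most changes were small: the median absolute log2 fold change of the calls was 0.25, and 137 genes (0.805%) were called with a change of at least 2-fold, 90 higher and 47 lower. The share called was 3.94% among the genes with an average log2 CPM below 1, and 25.1% among those at 7 or more, where the median absolute change of the calls was 0.16. The 13.4% of all genes set beside gene lists below makes no allowance for level. Of the calls, 886 (5.21% of genes tested, 38.8% of the calls) were specific to shTRPS1#1, 455 higher (2.67%) and 431 lower (2.53%). Among the specific genes, 712 were not called with shTRPS1#2 and 174 (1.02%) were called with shTRPS1#2 in the opposite direction, and 55 changed at least 2-fold, 34 higher and 21 lower. The rule asks more than absence from the list of shTRPS1#2: 1119 genes were called with shTRPS1#1 and not with shTRPS1#2, and 407 of them could not be told apart between the hairpins. A further 138 genes were called with both hairpins in the same direction but moved further with shTRPS1#1, 84 higher and 54 lower. For scale, shTRPS1#2 against shNT gave 3213 calls (18.9%), and shTRPS1#1 against shTRPS1#2 gave 3330 (19.6%), of which 1816 were higher with shTRPS1#1 (10.7%) and 1514 lower (8.9%).

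**Figure D1:**
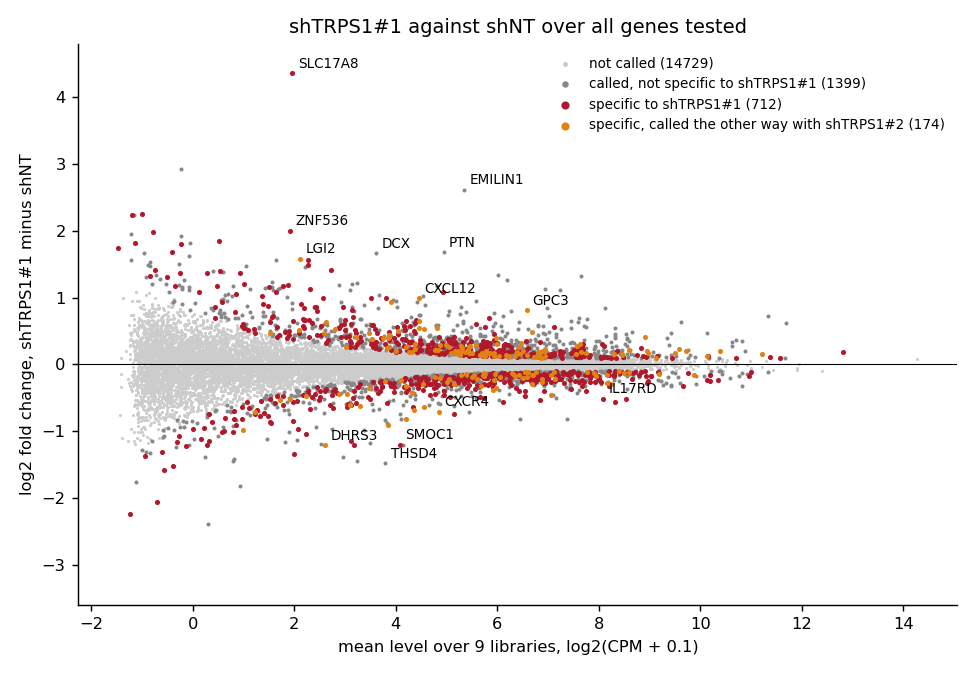
Log2 fold change between the shTRPS1#1 and the shNT libraries (vertical axis) against the mean level over all 9 libraries (horizontal axis, log2 of CPM + 0.1) for 17014 genes, coloured by whether a gene was called and whether the change was specific to shTRPS1#1. SLC17A8 stands at 4.36, apart from all other genes, and the 712 red and 174 orange points lie on both sides of 0.

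The gene that rose furthest with shTRPS1#1 was SLC17A8, which encodes a vesicular glutamate transporter of neurons (ENSG00000179520, chromosome 12, 100357079 to 100422059, plus strand, GRCh38). It had 9.73, 10.1 and 11.3 CPM in the shTRPS1#1 libraries, against 0.318, 0.584 and 0.622 CPM with shTRPS1#2 and 0.395, 0.575 and 0.525 CPM with shNT. The gene was thus close to silent in all libraries but those of shTRPS1#1, where its level was 20.6-fold that of shNT (log2 fold change 4.36 ± 0.17, edgeR adjusted p = 3.62e-26). With shTRPS1#2 the fold change was 0.03 ± 0.35 (edgeR adjusted p = 0.969). Of the 7 other genes tested within 300 kb of it, 0 were called by edgeR, DESeq2 or limma and 0 passed an unadjusted p of 0.05, the largest absolute change among them being that of the pseudogene GOLGA2P5 at 0.22 (edgeR adjusted p = 0.49). SLC17A7, its paralog, fell with both hairpins (-0.42 ± 0.07 and -0.30 ± 0.07).

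ZNF536, a zinc finger repressor studied mainly in neurons (chromosome 19, 30228290 to 30713538, plus strand), had 7.84, 7.34 and 7.93 CPM with shTRPS1#1, 1.18, 1.44 and 1.51 CPM with shTRPS1#2 and 1.97, 1.77 and 2.01 CPM with shNT. Its log2 fold change was 2.00 ± 0.13 with shTRPS1#1 and -0.48 ± 0.19 with shTRPS1#2, where it was not called (edgeR adjusted p = 0.075). C1QTNF3, a secreted protein of the C1q and TNF family, had 9.01, 8.29 and 8.1 CPM with shTRPS1#1, 2.95, 2.47 and 3.15 CPM with shTRPS1#2 and 2.54, 3.23 and 2.798 CPM with shNT. In both genes the shTRPS1#1 libraries stood clear of the other 6, which the naming rule for the largest specific changes asks for. Within 300 kb of ZNF536, 2 of the 3 other genes tested were specific rises: URI1, a prefoldin-like chaperone, at 0.14 (edgeR adjusted p = 0.00893), and ENSG00000280061, which lies within ZNF536 on the same strand, at 2.24 (edgeR adjusted p = 0.000364), so that its reads may belong to ZNF536. LGI2, a secreted protein with leucine-rich repeats, parted all 3 groups, with 8.203, 8.24 and 8.36 CPM with shTRPS1#1, 1.91, 1.62 and 1.51 CPM with shTRPS1#2 and 2.54, 3.404 and 2.32 CPM with shNT. It rose with shTRPS1#1 (1.58 ± 0.12) and fell with shTRPS1#2 (-0.71 ± 0.17, edgeR adjusted p = 0.00188).

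Receptors, ligands and synaptic proteins were among the other large specific rises. The bradykinin receptor gene BDKRB2 rose by 1.49 ± 0.13 on the log2 scale (edgeR adjusted p = 1.38e-13), the netrin NTN4 by 1.41 ± 0.10, the TNF family ligand TNFSF15 by 1.18 ± 0.13 and LEFTY1, an inhibitor of Nodal signalling, by 1.13 ± 0.12. NTN4 shows the scale of these changes, with 10.5, 9.998 and 11.7 CPM with shTRPS1#1, 4.76, 4.67 and 5.15 CPM with shTRPS1#2 and 4.08, 4.24 and 3.76 CPM with shNT. The 3 groups of NTN4 did not overlap, but the step between shTRPS1#2 and shNT was not called (0.27 ± 0.12, edgeR adjusted p = 0.118). LRRC7, a protein of synaptic densities, and SYT2, a calcium sensor of synaptic vesicles, rose by 1.16 ± 0.16 and 1.02 ± 0.17. Both overlap far more abundant genes on the other strand, LRRC40 at a mean of 45.3 CPM and PPP1R12B at 95.5 CPM, and the strand setting of the counts is not given in the sources used here, so their reads cannot be told apart from those of the partner. The same limit holds for other genes named below that overlap an expressed gene on the other strand, among them CYP1B1 (RMDN2), ETV4 (DHX8), ALDH1L2 (NOPCHAP1), FADS2 (FADS1), COL4A1 (COL4A2), RUNX2 (SUPT3H), KRT8 (KRT18), CTBP2 (ZRANB1), DNAJB9 (PNPLA8), GINS2 (GSE1), JUNB (HOOK2), PRKRA (CHROMR), LBX1, ID2, GATA2 and ZFPM2 (each with its antisense RNA gene). The remaining genes of this rank were muscle genes, LMOD2 and MYBPC1, which are described with the sarcomere.

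The promoters of 3 of the leading specific genes are shown because these genes moved with shTRPS1#1 and not with shTRPS1#2: SLC17A8 and MYBPC1 rose and SMOC1 fell. Each window holds 250 bases before and 50 after the gene's start in RefSeq (GRCh38.p14), all on the plus strand, at chr12:100356824-100357123, chr12:101594721-101595020 and chr14:69879166-69879465. For MYBPC1 and SMOC1 this start lies inside the gene span that GENCODE gives. Capitals mark the motif of GATA factors (GATAA, or TTATC when read on the other strand) and CAGCTG, a site used by MYOD1 and MYOG that reads the same on both strands.
SLC17A8: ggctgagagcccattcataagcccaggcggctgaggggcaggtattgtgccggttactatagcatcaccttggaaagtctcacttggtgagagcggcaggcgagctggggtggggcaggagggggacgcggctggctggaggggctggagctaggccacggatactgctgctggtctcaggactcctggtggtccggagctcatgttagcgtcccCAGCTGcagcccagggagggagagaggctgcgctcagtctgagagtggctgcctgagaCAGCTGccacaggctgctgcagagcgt
MYBPC1: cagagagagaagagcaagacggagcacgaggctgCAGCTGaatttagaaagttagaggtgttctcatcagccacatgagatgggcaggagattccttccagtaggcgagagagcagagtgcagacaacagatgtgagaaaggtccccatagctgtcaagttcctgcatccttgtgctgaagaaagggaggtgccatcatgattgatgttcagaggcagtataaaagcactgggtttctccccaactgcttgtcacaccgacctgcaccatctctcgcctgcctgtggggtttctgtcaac
SMOC1: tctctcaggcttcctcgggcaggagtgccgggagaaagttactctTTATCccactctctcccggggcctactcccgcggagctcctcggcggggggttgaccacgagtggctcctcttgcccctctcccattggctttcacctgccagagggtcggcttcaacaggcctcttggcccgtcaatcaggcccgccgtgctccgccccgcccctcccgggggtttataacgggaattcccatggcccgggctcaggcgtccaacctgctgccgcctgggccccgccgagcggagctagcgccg
The letters GATAA occur on either strand in none of the windows of the 2 genes that rose, and once in that of SMOC1. CAGCTG occurs in the windows of both genes that rose and not in that of SMOC1. The 3 genes are examples picked by hand among those that moved this way, and no pattern is read from their windows. Of 27305 windows of this length, 23.2% hold GATAA and 17.7% hold CAGCTG, and among the 11828 genes tested that have a window the shares were 13.9% and 17.6%. The specific genes that rose had shares of 11.7% and 18.1% over 332 windows, and those that fell 15.7% and 19% over 343 windows. A match is a run of letters and not a measured binding site.

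**Figure D2:**
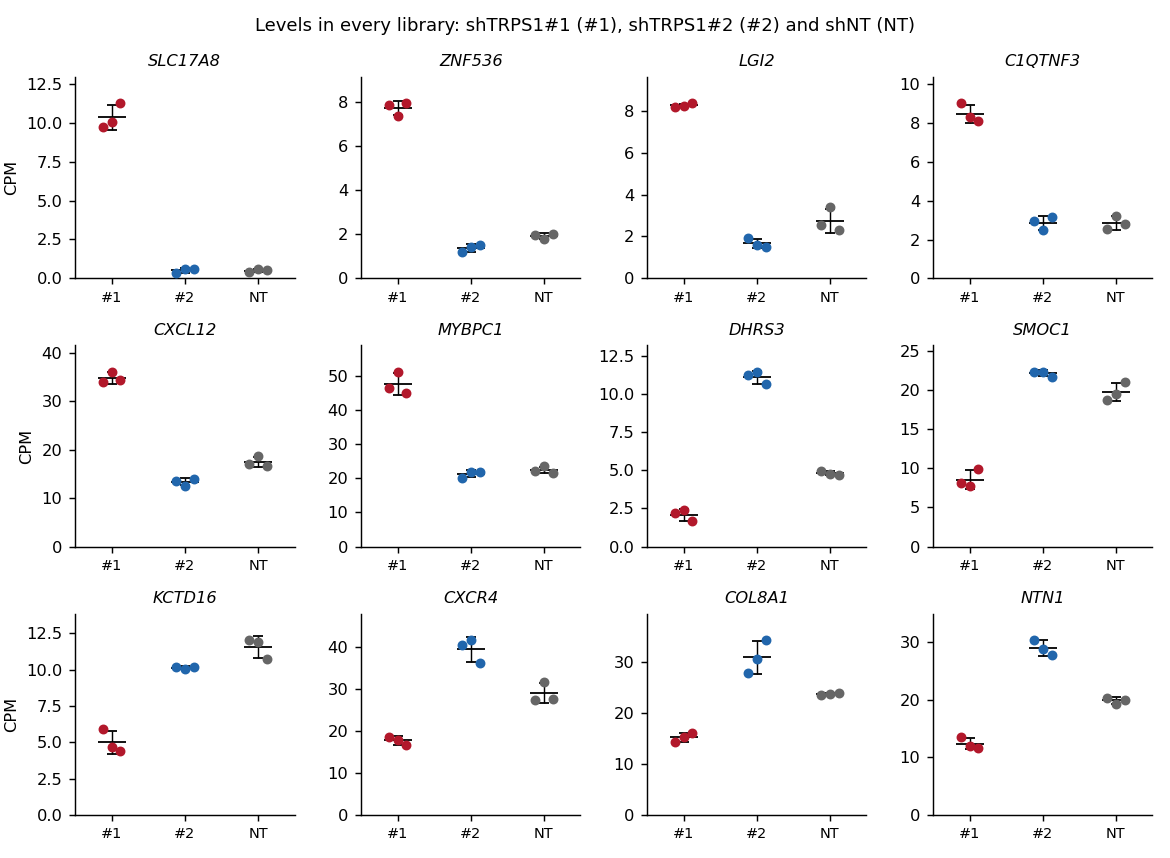
Levels in CPM (vertical axes, from 0) of 12 genes in every library, with 1 point per library and a bar for the mean ± SD of each group of 3. In the panels from SLC17A8 to MYBPC1 the shTRPS1#1 libraries lie above all others, and in those from DHRS3 to NTN1 below all others. All 12 genes were picked among those specific to shTRPS1#1, so this separation follows largely from the choice.

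A second set of large rises was shared with shTRPS1#2 but went further with shTRPS1#1. EMILIN1, a glycoprotein that ties elastic fibres to cells, had 94.3, 82.8 and 91.3 CPM with shTRPS1#1, 19.2, 18.5 and 17.2 CPM with shTRPS1#2 and 15.04, 14.02 and 14.6 CPM with shNT. This is a 6.14-fold level (log2 fold change 2.62 ± 0.06, edgeR adjusted p = 3.11e-37), against 0.33 ± 0.07 with shTRPS1#2, so the hairpins differed by 2.29 ± 0.05 (edgeR adjusted p = 2.94e-35). The heparin-binding growth factor PTN had 52.1, 54.6 and 51.03 CPM with shTRPS1#1, 21.6, 24.4 and 22.7 CPM with shTRPS1#2 and 15.8, 18.1 and 15.3 CPM with shNT. DCX, a microtubule protein of young neurons, had 21.2, 20.4 and 18.5 CPM with shTRPS1#1, 10.3, 10.9 and 9.505 CPM with shTRPS1#2 and 6.58, 6.59 and 5.73 CPM with shNT. These 3 genes were grouped because they were called with both hairpins and further with shTRPS1#1. Their shTRPS1#2 libraries lay between the other groups without overlap, nearer to shNT.

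EMILIN1 lies on chromosome 2 (27078567 to 27086408, plus strand) among 24 other tested genes within 300 kb, 6 of which rose with shTRPS1#1 and 1 of which fell, where 7.1% of all genes rose and 6.33% fell. The neighbourhood and its genes were chosen after their values were seen. KHK, the fructokinase gene that starts just downstream of EMILIN1, rose by 0.59 ± 0.10 and was specific, with 9.91, 8.47 and 10.01 CPM with shTRPS1#1, 6.22, 7.19 and 6.84 CPM with shTRPS1#2 and 6.36, 6.101 and 6.34 CPM with shNT. DPYSL5, a neuronal protein of the microtubule-binding CRMP family, rose by 0.73 ± 0.06, and MAPRE3, which binds microtubule ends, by 0.41 ± 0.06. The muscle ring finger gene TRIM54 rose with both hairpins (0.57 ± 0.08 and 0.53 ± 0.08), and the 0.03 ± 0.07 between the hairpins was not called (edgeR adjusted p = 0.818). CGREF1 (0.93 ± 0.31) overlaps the more abundant KHK on the other strand. Its call was lost without any shNT replicate, without shTRPS1#1 replicate 2 or 3, without the filter on low counts and with DESeq2. The call of SLC30A3 (0.52 ± 0.18) was lost without shNT or shTRPS1#1 replicate 2 or 3, and with DESeq2 and limma. It was also lost in the fit of 6 libraries with the replicate number as a block. GTF3C2, a general transcription factor of RNA polymerase III, fell by a log2 fold change of -0.13 (edgeR adjusted p = 0.0138).

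**Figure D3:**
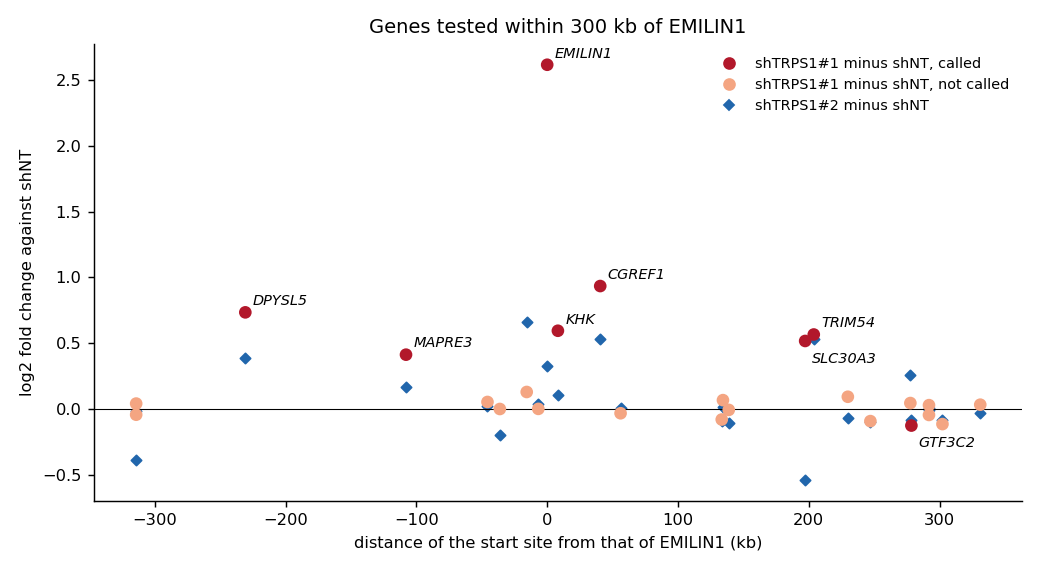
Log2 fold change against shNT (vertical axis) of the genes tested within 300 kb of the EMILIN1 gene body, placed by the distance of their start from that of EMILIN1 in kb (horizontal axis). Circles show shTRPS1#1 (dark when called) and diamonds shTRPS1#2; EMILIN1 stands at 2.62, and the 6 other genes that rose lie between 0.41 and 0.93.

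The largest specific falls were those of genes with unlike roles. SMOC1, a calcium-binding matrix protein that modulates BMP signals (chromosome 14, 69854131 to 70032366, plus strand), had 8.07, 7.702 and 9.88 CPM with shTRPS1#1, 22.3, 22.3 and 21.7 CPM with shTRPS1#2 and 18.7, 19.4 and 20.9 CPM with shNT. Its log2 fold change was -1.20 ± 0.08 (edgeR adjusted p = 3.00e-17) with shTRPS1#1 and 0.17 ± 0.07 with shTRPS1#2 (edgeR adjusted p = 0.0734). KCTD16, a partner of the GABA-B receptor, had 5.92, 4.68 and 4.42 CPM with shTRPS1#1, 10.2, 10.02 and 10.2 CPM with shTRPS1#2 and 12.1, 11.9 and 10.7 CPM with shNT. PAX2, a paired box factor of kidney and eye development, had 5.11, 5.09 and 4.68 CPM with shTRPS1#1, 9.44, 9.57 and 10.3 CPM with shTRPS1#2 and 11.4, 11.1 and 10.5 CPM with shNT. For both, the shTRPS1#1 libraries lay well below the other 6, where the naming rule asks for no overlap. The steps between shTRPS1#2 and shNT were not called (-0.19 ± 0.09 and -0.17 ± 0.08). PLA2G4D, a cytosolic phospholipase (-1.34 ± 0.15), GALNT14, which starts mucin-type sugar chains (-1.04 ± 0.14), and TMEM132B (-0.97 ± 0.13) fell as well, at levels of 5.84 CPM or less with shNT. DYNC1I1, a dynein chain found mainly in neurons, fell by -0.91 ± 0.08, and the cytokine gene CXCL8, interleukin 8, by -0.86 ± 0.17.

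Other large falls were present with both hairpins and deeper with shTRPS1#1. THSD4, which promotes fibrillin assembly, stood at 7.04 ± 0.145 CPM with shTRPS1#1, 14.6 ± 2.196 CPM with shTRPS1#2 and 19.6 ± 1.31 CPM with shNT (log2 fold changes -1.48 ± 0.09 and -0.43 ± 0.08). The chemokine CCL2 stood at 10.4 ± 0.851 CPM with shTRPS1#1, 18.3 ± 1.34 CPM with shTRPS1#2 and 24.04 ± 1.29 CPM with shNT, with log2 fold changes of -1.21 ± 0.07 and -0.39 ± 0.07. The delta opioid receptor OPRD1 (-1.44 ± 0.10 and -0.47 ± 0.09), the glutamate receptor subunit GRIN3A (-1.17 ± 0.08 and -0.25 ± 0.07), the autophagy gene RUBCNL (-1.39 ± 0.10 and -0.67 ± 0.09), the galactosyltransferase B3GALT5 (-1.19 ± 0.11 and -0.46 ± 0.10) and the sulfotransferase CHST8 (-1.17 ± 0.15 and -0.39 ± 0.13) followed the same order. These 7 genes were grouped because both falls and the difference between the hairpins were called. The middle place of the shTRPS1#2 libraries goes with that choice.

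Among the 174 genes that the hairpins moved in opposite directions, 104 were higher and 70 lower with shTRPS1#1. DHRS3, a reductase that turns retinal back to retinol (chromosome 1, 12567910 to 12617731, minus strand), had 2.196, 2.39 and 1.65 CPM with shTRPS1#1, 11.2, 11.5 and 10.6 CPM with shTRPS1#2 and 4.96, 4.77 and 4.68 CPM with shNT. The shNT libraries sat between the hairpins, which differed by -2.42 ± 0.12 (edgeR adjusted p = 9.38e-22). Other enzymes of vitamin A metabolism moved too, and apart from CYP1B1 these were picked after their values were seen. CYP1B1, a cytochrome P450 that can act on retinoids and steroids, stood at 11.4 ± 0.837 CPM with shTRPS1#1, 23.7 ± 1.41 CPM with shTRPS1#2 and 20.02 ± 0.705 CPM with shNT. RDH10, which makes retinal from retinol, stood at 294 ± 10.5 CPM with shTRPS1#1, 405 ± 14.6 CPM with shTRPS1#2 and 422 ± 10.1 CPM with shNT. RDH10 was thus lower with shTRPS1#1 and not called with shTRPS1#2 (-0.52 ± 0.03 and -0.06 ± 0.03). CYP26B1, which breaks down retinoic acid, was at 0.17 ± 0.05 with shTRPS1#1, a call lost without shTRPS1#1 replicate 1 or shNT replicate 3, and fell with shTRPS1#2 (-0.47 ± 0.05).

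The chemokine CXCL12 and its receptor CXCR4 moved in opposite senses with shTRPS1#1. CXCL12 had 33.9, 36.1 and 34.3 CPM with shTRPS1#1, 13.5, 12.6 and 13.99 CPM with shTRPS1#2 and 17.02, 18.6 and 16.7 CPM with shNT, a 1.99-fold level with shTRPS1#1 (log2 fold change 1.00 ± 0.06, edgeR adjusted p = 8.52e-19). CXCR4 had 18.6, 17.9 and 16.6 CPM with shTRPS1#1, 40.4, 41.7 and 36.2 CPM with shTRPS1#2 and 27.4, 31.7 and 27.7 CPM with shNT, a log2 fold change of -0.71 ± 0.07 (edgeR adjusted p = 3.74e-12). With shTRPS1#2 the ligand fell (-0.38 ± 0.07) and the receptor rose (0.45 ± 0.06), and no library of one group reached another in either gene. PTHLH, a secreted hormone of cartilage and breast, and STC1, stanniocalcin, fell with shTRPS1#1 (-0.63 ± 0.10 and -0.46 ± 0.04) and rose with shTRPS1#2 (0.66 ± 0.08 and 0.41 ± 0.03). GPC3, a cell surface proteoglycan, stood at 143 ± 8.95 CPM with shTRPS1#1, 61.9 ± 3.79 CPM with shTRPS1#2 and 81.4 ± 2.06 CPM with shNT. PITPNM3, a membrane phospholipid carrier, stood at 32 ± 1.76 CPM with shTRPS1#1, 13.2 ± 0.837 CPM with shTRPS1#2 and 20.4 ± 1.38 CPM with shNT, and the mitotic gene PIMREG overlaps it on the other strand. CXCR4, PTHLH, GPC3 and PITPNM3 were picked after their values were seen, for the size of the difference between the hairpins.

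Genes of the extracellular matrix changed in large numbers and in both directions. Of 35 collagen genes tested, 12 were higher and 12 lower with shTRPS1#1 (68.6% called, beside 13.4% of all genes), against 8 and 18 with shTRPS1#2. The median log2 fold changes were 0.10 and -0.11, beside 0.00 and -0.01 over all genes. COL5A3, a chain of fibrillar collagen V, rose with both hairpins and further with shTRPS1#1 (0.70 ± 0.04 and 0.18 ± 0.04). COL16A1 stood at 29.01 ± 1.302 CPM with shTRPS1#1, 16.9 ± 1.32 CPM with shTRPS1#2 and 19.96 ± 0.611 CPM with shNT. COL5A1 stood at 1507 ± 42.9 CPM with shTRPS1#1, 1212 ± 43.01 CPM with shTRPS1#2 and 1307 ± 45.3 CPM with shNT, so both chains rose with shTRPS1#1 and fell with shTRPS1#2. COL8A1, a short-chain collagen of vessel walls and cornea, did the opposite, with 14.3, 15.4 and 16.03 CPM with shTRPS1#1, 27.9, 30.7 and 34.4 CPM with shTRPS1#2 and 23.6, 23.7 and 23.96 CPM with shNT. The basement membrane chain COL4A1 fell with shTRPS1#1 (-0.24 ± 0.03), where shTRPS1#2 gave -0.07 ± 0.03 (edgeR adjusted p = 0.104). In all, 8 collagens rose and 4 fell in the specific sense, 8 of them in the direction opposite to shTRPS1#2, and the 4 became 2 without shTRPS1#1 replicate 3.

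Of 46 matrix glycoproteins and proteoglycans, 12 were higher and 12 lower with shTRPS1#1 (52.2% called, beside 13.4% of all genes), and 5 were higher and 19 lower with shTRPS1#2. The specific rises included FBN2, FBLN2, ELN and MFAP5, of elastic fibres and microfibrils, while FBLN5 and MFAP2, of the same structures, fell with both hairpins (-0.41 ± 0.05 and -0.16 ± 0.04 with shTRPS1#1). ELN, MFAP5, FBLN5 and MFAP2 were picked after their values were seen. Fibrillin 2, FBN2, had 182, 166 and 182 CPM with shTRPS1#1, 119, 123 and 121 CPM with shTRPS1#2 and 125, 114 and 120.3 CPM with shNT, and fibulin 2, FBLN2, had 75.8, 76.2 and 74.8 CPM with shTRPS1#1, 52.5, 55.6 and 51.3 CPM with shTRPS1#2 and 54.96, 52.2 and 57.4 CPM with shNT. In both genes the shTRPS1#2 and shNT libraries overlapped and those of shTRPS1#1 lay above (0.56 ± 0.04 and 0.46 ± 0.04). Tenascin X, TNXB, rose by 0.36 ± 0.05, and elastin, ELN, and the microfibril protein MFAP5 rose at very low levels. ELN stood at 0.857 ± 0.313 CPM with shTRPS1#1 and 0.176 ± 0.0888 CPM with shNT, and MFAP5 at 2.84 ± 0.0999 CPM with shTRPS1#1 and 1.23 ± 0.1095 CPM with shNT. Matrilin 2, MATN2, was higher with shTRPS1#1 and lower with shTRPS1#2 (0.94 ± 0.07 and -0.41 ± 0.08). The abundant ribosomal gene RPL30 overlaps MATN2 on the other strand, at a mean of 467.4 CPM, and moved by 0.12 ± 0.03 with shTRPS1#1. The laminin chain LAMA4 fell with shTRPS1#1 (-0.23 ± 0.03), as did the thrombospondin THBS3 with both hairpins (-0.30 ± 0.03 and -0.16 ± 0.03). Of 34 metalloproteinases and inhibitors, 5 rose and 8 fell (38.2% called), and the 5 became 3 without shNT replicate 2. The protease ADAMTS5 rose with both hairpins (0.46 ± 0.04 and 0.44 ± 0.04), and ADAMTS12 was a specific fall (-0.28 ± 0.04).

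More than 1 in 2 of the negative feedback genes and targets of the RAS and MAP kinase pathway fell with shTRPS1#1. This cascade carries growth factor signals to the nucleus and switches on its own inhibitors, the dual specificity phosphatases, Sprouty and Spred proteins, and RD cells are known to carry an activating NRAS mutation. Of 23 such genes tested, 14 fell and 1 rose with shTRPS1#1 (65.2% called, beside 13.4% of all genes), with a median log2 fold change of -0.16. With shTRPS1#2, 7 fell and 1 rose, with a median of -0.06. The falls specific to shTRPS1#1 were those of IL17RD, DUSP6, ETV4, SPRY4, ETV5, EPHA2, ETV1 and PHLDA1. IL17RD, an inhibitor of FGF signalling, had 209.7, 226 and 209.6 CPM with shTRPS1#1, 293, 297 and 296 CPM with shTRPS1#2 and 308, 309 and 306 CPM with shNT. The phosphatase DUSP6, which inactivates ERK, had 423, 442 and 432 CPM with shTRPS1#1, 526, 520.3 and 529 CPM with shTRPS1#2 and 510, 543 and 519.7 CPM with shNT. SPRY4, a Sprouty inhibitor of receptor signalling, had 443, 449 and 446 CPM with shTRPS1#1, 537, 552 and 512 CPM with shTRPS1#2 and 537, 527 and 520.1 CPM with shNT. These 3 genes were picked among the specific falls. In them every shTRPS1#1 library lay below all the others, while shTRPS1#2 libraries lay at or near the shNT level. The ETS factors ETV4 (-0.27 ± 0.04) and ETV5 (-0.22 ± 0.04), both turned on by ERK, were further specific falls, and the EGFR inhibitor ERRFI1, not in the list and picked after its value was seen, was a specific fall too (-0.37 ± 0.03). Cyclin D1, CCND1, fell with both hairpins (-0.82 ± 0.04 and -0.86 ± 0.04), and the member that rose, the ephrin receptor EPHA4 (0.43 ± 0.12), lost its call without shNT replicate 2 or shTRPS1#1 replicate 1 or 3, and with limma. Of 25 immediate early genes of the AP-1 type, which respond to the same cascade, 0 rose and 4 fell (KLF10, IER2, JUNB and KLF6; 16% called, near the share of all genes), and the 4 became 2 without shTRPS1#1 replicate 1 or 3. DESeq2 and limma also called 0 rises, edgeR gave 3 at an unadjusted p under 0.05, and none of the 4 falls was specific to shTRPS1#1.

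The receptors upstream of that pathway moved in both directions. Of 32 receptor tyrosine kinases, 7 rose and 8 fell (46.9% called, beside 13.4% of all genes). The counts became 4 rises without shTRPS1#1 replicate 3 and 5 falls without shNT replicate 1. Specific rises were seen for the PDGF receptor PDGFRB (0.37 ± 0.07), the EGF receptor EGFR (0.20 ± 0.04) and the collagen receptor DDR2 (0.20 ± 0.03), and specific falls for FLT1, EPHA2 (-0.21 ± 0.05) and EPHA7 (-0.15 ± 0.04). The ligand PDGFC, picked after its value was seen, had 75.3, 75.98 and 76.5 CPM with shTRPS1#1, 47.7, 48.6 and 49.03 CPM with shTRPS1#2 and 47.2, 46.6 and 47.05 CPM with shNT, so that all shTRPS1#1 libraries lay above the other 6 (0.69 ± 0.04, edgeR adjusted p = 8.16e-19). The kinase ALK fell with both hairpins (-0.98 ± 0.09 and -1.11 ± 0.10).

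**Figure D4:**
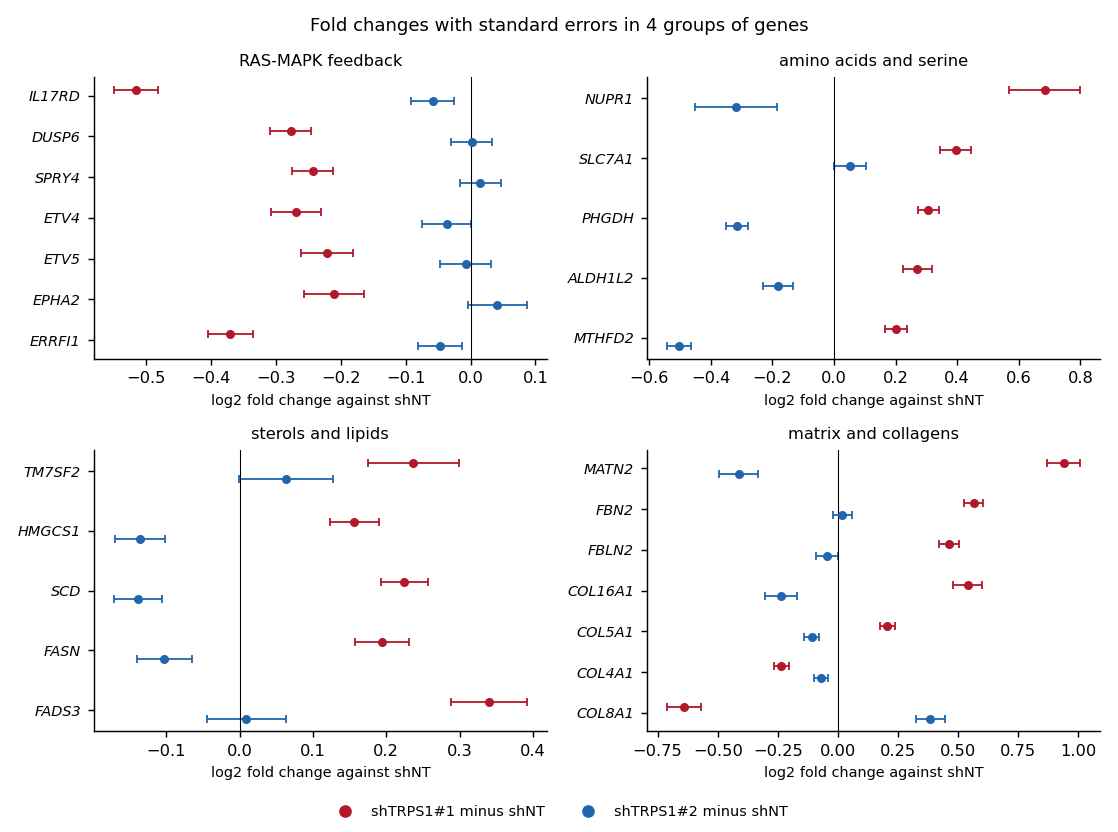
Log2 fold change against shNT with its standard error (horizontal axes) for named genes of 4 groups, in the shTRPS1#1 and the shTRPS1#2 libraries. Feedback genes and targets in the upper left panel were picked among the specific falls, ERRFI1 after its value was seen. Members such as CCND1, lower with both hairpins, are not drawn there. The 7 genes lie between -0.52 and -0.21 with shTRPS1#1, and between -0.06 and 0.04 with shTRPS1#2.

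Among genes of the ATF4 and amino acid response, 13 of 30 were higher with shTRPS1#1 and the other 17 were not called. Cells raise many of them through the factor ATF4 when amino acids run short or the endoplasmic reticulum is under stress. The list is wider than amino acid supply, and XBP1 and VLDLR are among the rises. Over the 30 genes, 0 fell with shTRPS1#1 (median 0.12), and 1 rose and 12 fell with shTRPS1#2 (median -0.12). With shTRPS1#1, 43.3% of them were called, beside 13.4% of all genes. Of the rises, 12 were specific, and 6 of those 12 were falls with shTRPS1#2. DESeq2 and limma called 0 falls with shTRPS1#1 either, and edgeR gave 1 at an unadjusted p under 0.05. PHGDH, the enzyme that commits glucose carbon to serine, had 245, 228 and 249 CPM with shTRPS1#1, 159.7, 157 and 153 CPM with shTRPS1#2 and 188, 198 and 198 CPM with shNT. MTHFD2, of mitochondrial folate metabolism, had 150.3, 146 and 149 CPM with shTRPS1#1, 86.5, 91.7 and 95.4 CPM with shTRPS1#2 and 125, 133 and 128 CPM with shNT. The groups did not overlap in either gene, and shNT lay between the hairpins in both. The arginine transporter SLC7A1 (0.40 ± 0.05), the stress regulator NUPR1 (0.68 ± 0.11) and ALDH1L2, another folate enzyme (0.27 ± 0.05), rose too, and the rest of the specific rises were CHAC1, SLC7A11, SLC7A5, PYCR1, PSAT1, XBP1 and SLC3A2. Of 24 ER chaperones tested, 0 rose (0 by DESeq2 and limma, and 0 by edgeR at an unadjusted p under 0.05) and 3 fell (EDEM1 at -0.20 ± 0.04, DNAJB9 at -0.14 ± 0.04 and CALR at -0.10 ± 0.03), and 5 fell with the replicate number as a block or without shTRPS1#2 replicate 3. The 12.5% of ER chaperones called is near the 13.4% of all genes.

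Some sterol and fatty acid genes were higher with shTRPS1#1 by small steps. Cholesterol is made by a chain of enzymes that the factor SREBP2 controls as a set. All 25 genes of the list that were tested had a positive log2 fold change with shTRPS1#1 (median 0.10), and 10 of them were called, all 10 specific, against 0 higher and 8 lower with shTRPS1#2 (median -0.06). The share called with shTRPS1#1 was 40%, beside 13.4% of all genes. No member passed an unadjusted p of 0.05 in the other direction by edgeR, and 0 were called lower by DESeq2 or limma. The 10 became 6 without shNT replicate 3, and the 10 specific ones 6 also without shTRPS1#1 replicate 1 or 3. HMGCS1, an early enzyme of the chain, had 339.9, 364 and 345 CPM with shTRPS1#1, 282, 297 and 278 CPM with shTRPS1#2 and 306, 322 and 314 CPM with shNT. Its shTRPS1#1 libraries lay above and its shTRPS1#2 libraries below all shNT libraries. Of 23 genes of fatty acid synthesis, 9 rose and 0 fell with shTRPS1#1 (39.1% called, median 0.09), against 3 and 8 with shTRPS1#2 (median -0.07). DESeq2 and limma called 0 falls here as well, and edgeR gave 1 at an unadjusted p under 0.05. The desaturase SCD had 886, 867 and 881 CPM with shTRPS1#1, 700.5, 707 and 639.8 CPM with shTRPS1#2 and 753, 754 and 746 CPM with shNT, again with shNT in between and no overlap. Fatty acid synthase, FASN (0.19 ± 0.04), the desaturases FADS2 (0.17 ± 0.04) and FADS3 (0.34 ± 0.05) and the acyl-CoA synthetase ACSL3 (0.17 ± 0.03) were further specific rises, whereas ACSL1 rose with both hairpins (0.35 ± 0.04 and 0.31 ± 0.04).

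**Figure D5:**
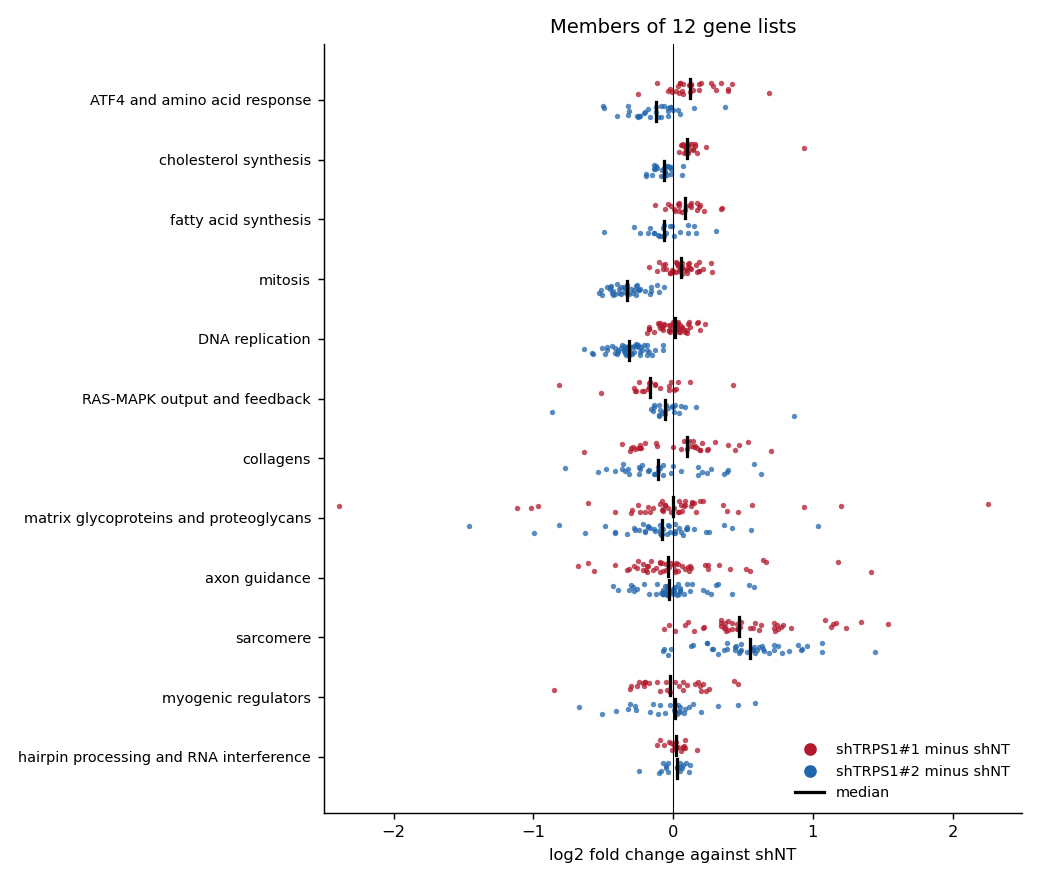
Log2 fold change against shNT (horizontal axis) of each tested member of 12 gene lists, in the shTRPS1#1 libraries (upper row of each list) and the shTRPS1#2 libraries (lower row), with the median as a bar. The medians of the amino acid, sterol, fatty acid, mitosis and collagen lists lie on opposite sides of 0 for the hairpins, and those of the sarcomere list lie at 0.47 and 0.55.

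The muscle programme itself was mostly shared between the hairpins. Of 44 sarcomere genes, 36 were higher and 0 lower with shTRPS1#1 (81.8% called, beside 13.4% of all genes), and 37 higher and 0 lower with shTRPS1#2. No member was lower by DESeq2 or limma or by edgeR at an unadjusted p under 0.05, and 2 of the 36 rises were specific, MYBPC1 and LMOD2. MYBPC1, the slow myosin-binding protein C of thick filaments (chromosome 12, 101568353 to 101686018, plus strand), had 46.5, 51.2 and 44.8 CPM with shTRPS1#1, 20.2, 21.9 and 21.9 CPM with shTRPS1#2 and 22.02, 23.5 and 21.6 CPM with shNT. Its log2 fold change was 1.08 ± 0.06 (edgeR adjusted p = 3.13e-21), where shTRPS1#2 gave -0.07 ± 0.06 (edgeR adjusted p = 0.513). LMOD2, which lengthens thin filaments, had 4.39, 4.86 and 5.85 CPM with shTRPS1#1, 2.68, 2.69 and 2.84 CPM with shTRPS1#2 and 2.32, 1.86 and 2.54 CPM with shNT. In both genes the shTRPS1#1 libraries stood above the other 6, as the naming rule for the largest specific changes asks. For LMOD2 the shTRPS1#2 libraries also lay above all shNT libraries, a step that was not called. MYH8, the perinatal myosin heavy chain, rose with both hairpins and further with shTRPS1#1 (difference 0.52 ± 0.04, edgeR adjusted p = 6.77e-14), as did the slow myosin MYH7 (difference 0.41 ± 0.03) and the stress-responsive ANKRD1 (difference 0.40 ± 0.04), which is also a YAP target. Other rises that went further with shTRPS1#1 were those of the Z-disc protein MYOZ2 (difference 0.12 ± 0.04), dystrophin, DMD (difference 0.13 ± 0.04), and RAPSN, which gathers acetylcholine receptors (difference 0.19 ± 0.04). Over the whole list the hairpins differed both ways, with 10 genes higher and 15 lower with shTRPS1#1 than with shTRPS1#2 (median difference -0.02). Tropomyosin 1, TPM1, rose less with shTRPS1#1 than with shTRPS1#2 (difference -0.31 ± 0.03).

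Excitation-contraction coupling, which links the membrane signal to calcium release, had 13 of 23 genes higher and 0 lower (0 by DESeq2 and limma, 1 by edgeR at an unadjusted p under 0.05). The share called was 56.5%, beside 13.4% of all genes. The specific rises were KCNJ2, SLN, JSRP1 and ASPH. KCNJ2, the inward rectifier potassium channel that sets the resting potential of muscle, had 5.69, 6.58 and 5.804 CPM with shTRPS1#1, 3.31, 3.59 and 4.04 CPM with shTRPS1#2 and 3.38, 3.18 and 3.104 CPM with shNT. Sarcolipin, SLN, an inhibitor of the calcium pump, rose with shTRPS1#1 (0.39 ± 0.07) and fell with shTRPS1#2 (-0.33 ± 0.08). The ASPH call (0.11 ± 0.03) was lost without shNT replicate 3 or shTRPS1#1 replicate 3, and with limma. JSRP1 (0.30 ± 0.05) overlaps the more abundant OAZ1 on the other strand. The calcium channel subunit CACNA1S (difference 0.16 ± 0.04) and sarcalumenin, SRL (difference 0.14 ± 0.03), rose with both hairpins and further with shTRPS1#1. Calsequestrin 2, CASQ2, the calcium store of slow and cardiac fibres, did so too (difference 0.43 ± 0.03). Of 33 potassium channel genes, 8 rose and 3 fell (33.3% called), with a median of 0.22 against -0.03 with shTRPS1#2. Besides KCNJ2 the specific rises were KCNA7 (0.67 ± 0.12), KCNH1 (0.34 ± 0.06) and KCNMB4 (0.17 ± 0.05, a call lost without shTRPS1#1 replicate 2). KCNJ3, a channel gated by G proteins, fell with both hairpins (-0.58 ± 0.06 and -0.38 ± 0.06).

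The factors that direct myogenesis moved in both directions by small steps. Of 29 tested, 8 rose and 9 fell with shTRPS1#1 (58.6% called, beside 13.4% of all genes). Specific rises were those of PAX7 (0.26 ± 0.04), MSC (0.24 ± 0.04), MYOD1 (0.20 ± 0.04), EYA4 (0.18 ± 0.04) and VGLL2 (0.16 ± 0.04), and the 5 became 3 without shTRPS1#1 replicate 3 or shTRPS1#2 replicate 3. MSC, musculin, is a repressor of myogenesis, and its opposite-strand neighbour MSC-AS1 is well expressed. PAX7, a factor of muscle stem cells, had 106, 100.2 and 103 CPM with shTRPS1#1, 74.6, 69.03 and 65.8 CPM with shTRPS1#2 and 87.6, 82.1 and 89.2 CPM with shNT, so that shNT lay between the hairpins. Specific falls were those of EYA2 (-0.85 ± 0.14), SIX2 (-0.26 ± 0.04), EYA1 (-0.21 ± 0.05) and TCF4 (-0.12 ± 0.03), the last a call lost without shNT replicate 1 or shTRPS1#1 replicate 1 or 3, and with limma. The EYA and SIX-family proteins act as pairs early in the muscle lineage, and SIX4 fell as well (-0.21 ± 0.04), with both hairpins, whereas EYA4 rose. Further falls were those of SNAI2 (-0.31 ± 0.04), ID3 (-0.30 ± 0.06) and PITX3 (-0.24 ± 0.06, lost without shTRPS1#1 replicate 2), and the shared rises included those of MEF2C (0.46 ± 0.03) and MYOG (0.19 ± 0.04). The 12 members not called were MEF2A (0.04 ± 0.04), MEF2B (-0.09 ± 0.39), MEF2D (0.07 ± 0.04), PAX3 (0.10 ± 0.06), LBX1 (-0.17 ± 0.07), MEOX1 (-0.20 ± 0.21), TCF3 (0.07 ± 0.03), TCF12 (-0.05 ± 0.03), TWIST1 (0.01 ± 0.35), ID1 (-0.05 ± 0.22), ID2 (0.44 ± 0.16) and HEYL (-0.02 ± 0.03).

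Of 32 genes for fusing myoblasts and the muscle membrane, 14 were higher and 5 lower with shTRPS1#1 (59.4% called, beside 13.4% of all genes). Specific among them were rises of SGCA, alpha-sarcoglycan (0.18 ± 0.04), and KIRREL1 (0.12 ± 0.03, lost without shNT replicate 2 or shTRPS1#1 replicate 1). Specific falls were those of ADGRB1 (-0.46 ± 0.13, lost without shTRPS1#1 replicate 2), NEO1 (-0.33 ± 0.09, lost without shTRPS1#1 replicate 3 and with limma) and N-cadherin, CDH2 (-0.18 ± 0.03). The messages of the fusion proteins themselves parted in the same way with both hairpins. That of myomaker, MYMK, was higher (0.49 ± 0.06 and 0.44 ± 0.06) and that of myomixer, MYMX, was lower (-0.67 ± 0.08 and -0.77 ± 0.08). Neogenin, NEO1, is a netrin receptor, and CDH2 had 235, 242 and 225 CPM with shTRPS1#1, 250, 259 and 267 CPM with shTRPS1#2 and 266, 266 and 261 CPM with shNT, where the lowest values of shTRPS1#2 lay between the other groups.

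Axon guidance genes, whose products also steer other cells, changed in both directions. Of 50 tested, 10 were higher and 14 lower with shTRPS1#1 (48% called, beside 13.4% of all genes), against 5 higher and 5 lower with shTRPS1#2. With shTRPS1#1, 9 of the rises and 8 of the falls were specific. The 10 rises became 6 without shNT replicate 2 or shTRPS1#1 replicate 1. The netrins parted: NTN4 rose, as described, and NTN1, the founding attractant of the family, had 13.5, 11.98 and 11.6 CPM with shTRPS1#1, 30.4, 28.7 and 27.8 CPM with shTRPS1#2 and 20.3, 19.2 and 19.98 CPM with shNT. NTN1 fell with shTRPS1#1 (-0.68 ± 0.07, edgeR adjusted p = 7.68e-11) and rose with shTRPS1#2 (0.54 ± 0.06), without overlap of any groups. Of the netrin receptors, UNC5D fell (-0.28 ± 0.04), and UNC5C and NEO1 were further specific falls. The secreted semaphorin SEMA3B had 27.9, 25.4 and 27.8 CPM with shTRPS1#1, 18.8, 18.1 and 19.5 CPM with shTRPS1#2 and 17.1, 16.7 and 17.5 CPM with shNT, and rose by 0.66 ± 0.06. Its shTRPS1#2 libraries lay above all shNT libraries, a step that was not called. Of the semaphorin receptors, PLXNA2 was a specific fall (-0.26 ± 0.03) and NRP2 was lower with both hairpins (-0.32 ± 0.04 and -0.40 ± 0.04).

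Of 23 cadherins and protocadherins, 6 rose and 8 fell with shTRPS1#1 (60.9% called, beside 13.4% of all genes). The falls became 4 without shNT replicate 1 or shTRPS1#1 replicate 3, and 5 without shNT replicate 3 or shTRPS1#1 replicate 2. R-cadherin, CDH4, had 38.6, 35.2 and 37.7 CPM with shTRPS1#1, 21.4, 21.9 and 21.1 CPM with shTRPS1#2 and 26.2, 24.6 and 25.3 CPM with shNT, a rise with shTRPS1#1 (0.55 ± 0.05) and a fall with shTRPS1#2 (-0.24 ± 0.06). PCDH18 rose (0.28 ± 0.03) and CLSTN2 and FAT3 fell (-0.47 ± 0.04 and -0.21 ± 0.04) in the specific sense. CDH7 rose with both hairpins (0.37 ± 0.07 and 0.34 ± 0.07).

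Proliferation genes were called in different numbers with the hairpins. Among 40 genes of mitosis, 8 were higher and 0 lower with shTRPS1#1, while 0 were higher and 35 lower with shTRPS1#2. The share called with shTRPS1#1 was 20%, beside 13.4% of all genes. With shTRPS1#1, DESeq2 and limma called 0 lower, edgeR gave 3 at an unadjusted p under 0.05, and the fit with the replicate number as a block called 1. The 8 were all specific and small, led by the proliferation marker MKI67, which had 238, 214 and 238 CPM with shTRPS1#1, 148, 154 and 148 CPM with shTRPS1#2 and 189, 179 and 202 CPM with shNT. The count moved with single libraries: it became 4 without shNT replicate 1, shNT replicate 2 or shTRPS1#1 replicate 1, and 3 without shTRPS1#1 replicate 3. Of 50 DNA replication genes, 3 rose (CDC45, EXO1 and TK1) and 3 fell (UHRF1, GINS4 and GINS2) with shTRPS1#1, against 0 and 47 with shTRPS1#2. The 12% called with shTRPS1#1 is near the 13.4% of all genes, where shTRPS1#2 called 18.9% of all genes, and the count of 3 rises ranged from 1 to 5 when single libraries were left out and was 5 with the replicate number as a block. CDC45, part of the replicative helicase, had 24.4, 24.7 and 24.5 CPM with shTRPS1#1, 14.7, 16.4 and 17.5 CPM with shTRPS1#2 and 20.3, 21 and 21.6 CPM with shNT. D-type cyclins fell, CCND1 at -0.82 ± 0.04, CCND2 at -0.32 ± 0.03 and CCND3 at -0.12 ± 0.03, and the CDK inhibitor CDKN1A rose, with 136, 127 and 135 CPM with shTRPS1#1, 113, 118 and 107 CPM with shTRPS1#2 and 87.3, 85.2 and 90.6 CPM with shNT. Of 25 p53 targets, 2 rose, CDKN1A and GDF15 (0.51 ± 0.12), and 2 fell, CCNG1 (-0.16 ± 0.05) and TP53I3 (-0.15 ± 0.04). This is 16% of the list, close to the 13.4% of all genes. The CCNG1 call was lost without shNT replicate 1 or shTRPS1#1 replicate 1, and with DESeq2 and limma. The TP53I3 call was lost without shNT replicate 3. GDF15, a stress cytokine, fell with shTRPS1#2 (-0.46 ± 0.14).

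In the developmental pathways members moved in both directions, except in the Hedgehog list. The shares called were 25.9% for Notch, 38.2% for Wnt, 41% for TGF-beta and BMP and 30.8% for Hedgehog, beside 13.4% of all genes. In the Notch pathway 5 of 27 genes rose and 2 fell. The receptor NOTCH3 had 628, 566 and 599.5 CPM with shTRPS1#1, 410.1, 419 and 375 CPM with shTRPS1#2 and 464, 434 and 449 CPM with shNT, a rise of 0.41 ± 0.04 with shTRPS1#1 and a fall with shTRPS1#2 (-0.16 ± 0.04). The ubiquitin ligase DTX4 (0.46 ± 0.07), the ligand JAG1 (0.40 ± 0.10, a call lost with limma) and the glycosyltransferase LFNG (0.17 ± 0.05) were the other specific rises, and these 4 became 2 without shTRPS1#1 replicate 1. The target HES1 fell with both hairpins (-0.39 ± 0.05 and -0.23 ± 0.05), and the non-canonical ligand DLK1 rose with both (1.17 ± 0.06 and 0.63 ± 0.06). In the Wnt pathway 4 of 34 genes rose and 9 fell, with the receptor LGR5 lower (-0.33 ± 0.03) and its relative LGR4 higher (0.31 ± 0.04) in the specific sense. In the TGF-beta and BMP pathway 7 of 39 rose and 9 fell. BMP4 (0.72 ± 0.15), the co-receptor TGFBR3 (0.29 ± 0.05), the activin antagonist FSTL3 (0.30 ± 0.08) and the low-level ligand GDF6 (1.17 ± 0.30) were specific rises, which became 2 without shTRPS1#1 replicate 3. The receptor BMPR1A was a specific fall (-0.19 ± 0.04). In the Hedgehog pathway 0 of 13 rose (0 by DESeq2 and limma, 1 by edgeR at an unadjusted p under 0.05) and 4 fell, the co-receptors BOC (-0.42 ± 0.03), CDON (-0.17 ± 0.04) and GAS1 (-0.12 ± 0.03, lost without shTRPS1#1 replicate 1) and the receptor PTCH1 (-0.18 ± 0.05, lost without shTRPS1#1 replicate 3 and with limma), and none of the 4 was specific.

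In the IGF axis 3 of 19 genes rose and 4 fell (36.8% called, beside 13.4% of all genes), and the 4 became 2 without shTRPS1#1 replicate 1 or 3. IGFBP6, which binds IGF2 in preference, had 86.3, 86.02 and 89.1 CPM with shTRPS1#1, 126, 126 and 136 CPM with shTRPS1#2 and 125, 126 and 129 CPM with shNT. The drop was seen in all 3 shTRPS1#1 libraries and in none of the others (-0.54 ± 0.04, edgeR adjusted p = 3.47e-16). The protease PAPPA, which frees IGF from its binding proteins, rose at a low level (0.55 ± 0.12), and its inhibitor STC1 fell, as given above. IGFBP3 rose with both hairpins and further with shTRPS1#1 (difference 0.34 ± 0.03). Among 28 targets of YAP and TEAD factors, 9 were higher and 1 lower (35.7% called). The specific rises were the TEAD cofactor VGLL3 (0.35 ± 0.04) and the GTPase regulator DLC1 (0.31 ± 0.05). Of 36 HOX genes, 0 rose (0 by DESeq2 and limma, 1 by edgeR at an unadjusted p under 0.05) and 5 fell, which is 13.9% called beside 13.4% of all genes, and the 5 became 2 without shNT replicate 2 or 3 and 3 without shTRPS1#1 replicate 2 or 3. HOXB8, which patterns the trunk, had 26.1, 24.8 and 25.6 CPM with shTRPS1#1, 39.1, 39.03 and 41.1 CPM with shTRPS1#2 and 30.5, 30.6 and 30.96 CPM with shNT and was a specific fall, with shNT between the hairpins.

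Among heat shock genes, 7 of 22 rose and 0 fell (0 by DESeq2 and limma, 2 by edgeR at an unadjusted p under 0.05). The share called was 31.8%, beside 13.4% of all genes. CRYAB, alpha-B crystallin, a small chaperone of muscle and lens, had 21.6, 20.7 and 19.9 CPM with shTRPS1#1, 10.6, 9.79 and 10.9 CPM with shTRPS1#2 and 10.5, 9.86 and 10.8 CPM with shNT. It rose with shTRPS1#1 (log2 fold change 1.00 ± 0.07, edgeR adjusted p = 6.11e-16) and was at 0.01 ± 0.08 with shTRPS1#2. HSPB2, which shares its promoter region with CRYAB and is read from the other strand within the CRYAB span, stood at 0.885 ± 0.214 CPM with shTRPS1#1 and 0.2201 ± 0.153 CPM with shNT, and its reads cannot be told apart from those of CRYAB. The other 12 genes tested within 300 kb were not called. The small chaperones HSPB3 (0.57 ± 0.05), HSPB7 (0.59 ± 0.06) and HSPB1 (0.28 ± 0.04), all found in muscle, rose with both hairpins and further with shTRPS1#1.

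Of 21 NF-kappaB targets and cytokines, 4 rose and 2 fell (28.6% called, beside 13.4% of all genes), and the 4 were PTX3, ICAM1, CXCL12 and IL32. The inflammatory cytokine IL32 had 3.94, 3.198 and 4.85 CPM with shTRPS1#1, 1.45, 2.29 and 2.09 CPM with shTRPS1#2 and 2.15, 2.17 and 2.23 CPM with shNT and was a specific rise (0.88 ± 0.16). PTX3, a secreted pattern recognition protein, rose with both hairpins and further with shTRPS1#1 (1.56 ± 0.16 and 1.13 ± 0.18), and the adhesion molecule ICAM1 rose with both (1.13 ± 0.18 and 0.79 ± 0.19). The 2 falls, CCL2 and CXCL8, are given above, so the chemokines and cytokines of the list did not share a direction.

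Several genes near the filter on low counts also moved in the specific sense, and were chosen after their values were seen. WNT1, a founding Wnt ligand, stood at 0.192 ± 0.0635 CPM with shTRPS1#1, 0.524 ± 0.116 CPM with shTRPS1#2 and 0.8203 ± 0.0554 CPM with shNT (-2.06 ± 0.39). The ferritin receptor SCARA5 stood at 2.66 ± 0.857 CPM with shTRPS1#1, 0.598 ± 0.222 CPM with shTRPS1#2 and 0.733 ± 0.269 CPM with shNT (1.85 ± 0.25). LEFTY2, the neighbour and relative of LEFTY1, stood at 1.55 ± 0.297 CPM with shTRPS1#1, 0.269 ± 0.161 CPM with shTRPS1#2 and 0.4396 ± 0.0788 CPM with shNT (1.81 ± 0.29). At such levels the SD over 3 libraries is large beside some of the means. IL17B, a cytokine gene, rose at a higher level (0.82 ± 0.09), with 12.1, 12.6 and 12.04 CPM with shTRPS1#1, 6.99, 8.08 and 6.04 CPM with shTRPS1#2 and 6.67, 6.19 and 7.96 CPM with shNT. The monoamine transporter SLC18A1 fell with shTRPS1#1 (-0.98 ± 0.23) and rose with shTRPS1#2 (0.85 ± 0.17), and the forkhead gene FOXS1 rose with shTRPS1#1 (1.32 ± 0.30) where shTRPS1#2 gave -1.10 ± 0.44.

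Lists that bear on a general response to the hairpin or on RNA composition lay on both sides of the 13.4% called over all genes, with 0 called in hairpin processing, 1.32% in cytosolic ribosomal proteins, 19.6% in the interferon response, 21.2% in hypoxia and glycolysis and 38.5% in the mitochondrially encoded respiratory chain. Of 18 genes of hairpin processing and RNA interference, 0 rose and 0 fell with shTRPS1#1 in edgeR's quasi-likelihood test. At an unadjusted p under 0.05 edgeR gave 2 rises and 2 falls, DESeq2 called 1 rise, the helicase gene DDX5, and limma 0. DICER1 was at 0.03 ± 0.03, DROSHA at -0.03 ± 0.04, DGCR8 at 0.09 ± 0.04, XPO5 at 0.07 ± 0.04, and the Argonautes AGO1 to AGO4 at 0.01 ± 0.04, -0.09 ± 0.04, -0.01 ± 0.04 and 0.09 ± 0.05. DDX5 itself was at 0.08 ± 0.03, TARBP2 at -0.07 ± 0.05, PRKRA at 0.02 ± 0.04 and DDX17 at 0.02 ± 0.03. The Argonaute partners TNRC6A, TNRC6B and TNRC6C were at 0.06 ± 0.04, -0.02 ± 0.04 and -0.11 ± 0.05, SND1 at 0.02 ± 0.03, LIN28B at 0.07 ± 0.06 and the scarce TRIM71 at 0.17 ± 0.20. With the replicate number as a block, 1 gene of the list rose and 1 fell. Of 56 interferon response genes, 5 rose and 6 fell. HERC5 was a specific rise (0.30 ± 0.05), B2M (-0.16 ± 0.03) and TAPBP (-0.22 ± 0.05), of antigen presentation, were specific falls, and the 5 rises became 3 without shNT replicate 1 or 2 or shTRPS1#1 replicate 3. Among 76 genes for cytosolic ribosomal proteins, 1 was higher and 0 lower (0 by DESeq2, by limma and by edgeR at an unadjusted p under 0.05), while 41 were lower with shTRPS1#2. The single rise was RPL30, and the count ranged from 0 to 5 when single libraries were left out and was 6 with the replicate number as a block. Of 13 messages encoded by mitochondrial DNA, 5 were called lower (MT-CYB at -0.15 ± 0.03, MT-ATP6 at -0.14 ± 0.03), 3 without shNT replicate 3 or shTRPS1#1 replicate 1 and 8 without shTRPS1#2 replicate 3 or with the replicate number as a block, and limma called 0. With shTRPS1#2, 12 of the 13 were lower, and 0 of the falls with shTRPS1#1 were specific (medians -0.18 and -0.09). Of 33 nuclear genes of the respiratory chain, 1 rose and 0 fell, which is 3.03% called (0 falls by DESeq2 and limma, 1 by edgeR at an unadjusted p under 0.05). Of 33 hypoxia and glycolysis genes, 3 rose and 4 fell, among them EGLN3 (0.51 ± 0.07) and VEGFA (0.18 ± 0.04) higher and NDRG1 (-0.33 ± 0.05) and PKM (-0.15 ± 0.03) lower in the specific sense.

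TRPS1 has GATA-type relatives and works with the NuRD repressor complex. The list of these genes also holds TRPS1, the target of the hairpin, whose fall is among the calls. With TRPS1 counted, 10% of the list was called, beside 13.4% of all genes. Of 20 tested, 0 rose (0 by DESeq2 and limma, 1 by edgeR at an unadjusted p under 0.05) and 2 fell, TRPS1 itself and the NuRD subunit GATAD2B (-0.13 ± 0.04), whose call was lost without shNT replicate 1 or shTRPS1#1 replicate 3, and with limma. GATA2 was at 0.05 ± 0.14, GATAD2A at -0.02 ± 0.04, CHD4 at -0.11 ± 0.05, CHD3 at 0.00 ± 0.03, HDAC1 at -0.07 ± 0.03, HDAC2 at -0.01 ± 0.04, MTA1, MTA2 and MTA3 at 0.01 ± 0.04, -0.02 ± 0.04 and -0.09 ± 0.04, and RBBP4 and RBBP7 at -0.01 ± 0.03 and 0.00 ± 0.04. The corepressors CTBP1 and CTBP2 were at 0.00 ± 0.03 and 0.00 ± 0.04. The GATA cofactors ZFPM1 and ZFPM2, of the FOG family, were at 0.01 ± 0.15 and 0.16 ± 0.06, GATAD1 at -0.11 ± 0.05, and MBD2 and MBD3 at 0.07 ± 0.05 and 0.01 ± 0.04.

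Markers of other cell types were read as whole lists. The shares called were 69.2% for smooth muscle, 80% for fibroblast and 23.1% for chondrocyte and bone markers. For neuronal and adipocyte markers they were 22.2% and 25%, beside 13.4% of all genes. Of 13 smooth muscle markers tested, 8 rose and 1 fell with shTRPS1#1, with summed levels of 3911 to 4048 CPM with shTRPS1#1 and 3397 to 3498 CPM with shNT. MYOCD had no read, MYH11 was near 0, and DES, which skeletal muscle also makes, held 42.1% of the sum. Smooth muscle actin, ACTA2, was the specific rise, with 27.7, 24.6 and 28.9 CPM with shTRPS1#1, 17.01, 15.8 and 18.8 CPM with shTRPS1#2 and 17.4, 16 and 19.5 CPM with shNT. It overlaps STAMBPL1 on the other strand, at a mean of 11.2 CPM. Of 10 fibroblast markers tested, 5 rose and 3 fell, the 5 becoming 3 without shNT replicate 2 or shTRPS1#1 replicate 1, with summed levels of 23281 to 23836 CPM with shTRPS1#1 and 22036 to 22524 CPM with shNT. DPT had no read, PDGFRB was a specific rise, FAP fell with both hairpins (-0.82 ± 0.07 and -0.48 ± 0.07), and COL3A1 held 89.5% of the sum. Of 13 chondrocyte and bone markers tested, 0 rose (0 by DESeq2, by limma and by edgeR at an unadjusted p under 0.05) and 3 fell, with summed levels of 291 to 305 CPM with shTRPS1#1 and 328 to 344 CPM with shNT. These were aggrecan, ACAN (-0.88 ± 0.17), the bone factor RUNX2 (-0.60 ± 0.10), both specific, and COL2A1, lower with both hairpins (-0.30 ± 0.04 and -0.31 ± 0.04).

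Of 18 neuronal markers tested, 3 rose and 1 fell, with summed levels of 1229 to 1254 CPM with shTRPS1#1 and 1119 to 1175 CPM with shNT, 43.9% of which was NCAM1, a gene that muscle also expresses. The rises were DCX, UNC80 (0.95 ± 0.08 and 1.24 ± 0.07 with the other hairpin) and NCAM1 (0.18 ± 0.03 and 0.20 ± 0.03), none of them specific, and 12 further markers, RBFOX3, STMN2 and GAP43 among them, were too low to be tested. The adipocyte list had 4 genes tested, of which the fatty acid carrier CD36 rose with both hairpins (0.85 ± 0.04 and 0.75 ± 0.04) and held 96.4% of the summed level, which was 332 to 373 CPM with shTRPS1#1 and 194 to 206 CPM with shNT. The endothelial, leukocyte and epithelial lists had 5, 1 and 3 genes tested and, among these, 1 call, KRT8 (-0.74 ± 0.26), which was lost without any of 5 of the 6 libraries compared. The part that other cells could have in the results was not tested beyond these levels.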

How the data were processed

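RD cells with shTRPS1#1, shTRPS1#2 or shNT gave 9 poly(A) RNA-seq libraries, 3 per group. The authors deposited 1 table of raw read counts per gene and, beside it, RPKM values, which are the counts scaled by gene length and library total. Per the submitters' processing notes, bcl2fastq 2.20.0.422, STAR 2.7.2b and featureCounts 1.6.5 were used with GRCh38. For the strand setting, the annotation release and multi-mapping reads, no source used here gives the choice. Each gene's RPKM values were proportional to its counts per library total. Of 60676 identifiers, 24533 had no read, 60357 matched a gene symbol and those without one held 0.107% of the counts. Positions are those of GENCODE 29 and promoters those of RefSeq GRCh38.p14.

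Changes in counts were tested by the quasi-likelihood test of edgeR 4.0.16 (TMM scaling, filterByExpr with a minimum count of 10) in R 4.3.3, in 1 fit of all 9 libraries, with Benjamini-Hochberg adjustment over 17014 genes. The biological coefficient of variation was 2.785%. Alternatives were other scalings and filters, single libraries left out, DESeq2 1.42.0, and limma 3.58.1 on log2(RPKM + 0.1). Intervals and tests cover the spread between libraries only.

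Same-numbered shTRPS1#1 and shNT libraries deviated together, with correlations of 0.111, 0.181 and 0.386 over the 5000 genes with the highest level, and the other 6 pairings of these groups gave -0.434 to 0.179. The pairing is a hint from the data and comes from no label: shTRPS1#1 replicate 1 correlated better with shNT replicate 3 than with its own number, and for shTRPS1#2 and shNT the same numbers gave 0.245, -0.291 and 0.0635. The fit behind the printed values has no block, and the replicate block was an alternative. The comparison, the gene lists and the alternatives were chosen with earlier results of these data known. Genes were named by rule: the 12 largest called rises and falls, the same among specific genes (average log2 CPM of at least 1, no overlap of groups), up to 5 members per list by adjusted p, up to 2 in the opposite direction, up to 5 specific members, and all members of 3 short lists. Genes outside the rule are said to be chosen after their values were seen, and some genes that the rule picks are not reported here.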

Additional observations from a re-analysis of the deposited data

Results flagged for a closer look

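The hairpins moved 174 genes in opposite directions against shNT, each with the difference between the hairpins called by edgeR. Against shTRPS1#2, the difference of shTRPS1#1 was -2.42 on the log2 scale for DHRS3, 2.30 for LGI2, -1.67 for SLA, 1.38 for CXCL12, 1.35 for MATN2 and -1.28 for PTHLH. SLA, an adaptor protein of lymphocyte signalling that was chosen after its values were seen, had low levels and overlaps TG on the other strand, and its call against shNT was lost in some alternatives. These genes stood out because the effect of shTRPS1#1 and that of shTRPS1#2 differed by a test of the difference itself. Both effects were measured against the same 3 shNT libraries. What sets the hairpins apart was not tested.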

How the results depend on the processing

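Direction reversed for 0 of the 297 called genes picked by the naming rule or singled out: 243 kept their call in every alternative and 54 lost it in at least one, most often without shTRPS1#1 replicate 3 (28 genes), without shTRPS1#1 replicate 1 (25) or with limma on log2(RPKM + 0.1) (34). With DESeq2, 18 lost their call. CALR, DNAJB9 and GINS2, given above without this limit, were among the 54. Specific rises numbered 275 with limma and 294 at an adjusted p under 0.01, against 455. At that stricter threshold the calls that were lower numbered 695 and the specific falls 262, since fewer genes pass it. Where an unadjusted p under 0.05 in edgeR's test already counted as presence with shTRPS1#2, 431 specific genes were higher and 395 lower, against 455 and 431. When 1 library was left out, the calls against shNT ranged from 971 to 1290 higher and from 801 to 1188 lower, the specific genes from 333 to 446 higher and from 305 to 444 lower, the calls against shTRPS1#2 from 1358 to 1910 higher and from 1064 to 1609 lower, the genes moved in opposite directions from 71 to 116 higher and from 44 to 75 lower, and TRPS1 from -0.40 to -0.32. DESeq2 called 959 higher and 761 lower, and 630 of the 886 specific genes were specific with it, while 398 were specific in every alternative with a filter. With the replicate number as a block, 1312 genes were higher and 1193 lower, 502 specific genes higher and 475 lower, and TRPS1 was at -0.35; 0 named genes lost their call, and in the fit of 6 libraries with the block 1 did, SLC30A3. Beside the lists whose counts with this block stand with them, the specific falls among p53 targets became 2 against 1 and the falls among endothelial markers 1 against 0, and the block moved no other count of a list by over 1.5 times. The median of 15 of the 46 lists changed sign in some alternative, so no direction is read from those medians. Limma called fewer members of some lists, with 3 rises against 8 in mitosis, 7 against 12 in collagens 5 against 10 in axon guidance, and 0 falls against 5 in mitochondrially encoded genes. Of the 3735 genes with an average log2 CPM under 1, 3.94% were called.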
